A study of Rattus norvegicus with 12 samples.

Results

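The response to CFA was compared between 2 regions of the rat brain, gene by gene. For each gene the CFA effect, CFA minus saline on the log2(FPKM + 1) scale, was taken in the thalamus and in the rostral ventral medulla (RVM). The quantity described here is the thalamus effect minus the RVM effect, called the difference below. FPKM are fragments per unit of gene length and sequencing depth. Genes were tested if their mean reached 1 FPKM over the 6 thalamus libraries and also over the 6 RVM libraries, which held for 13738 of the 34525 genes in the table, 12542 of them protein coding. A further 984 genes reached this level in the thalamus alone, 551 in the RVM alone, and 19252 in neither region. Because CFA libraries count toward the mean, 408 tested genes were under 1 FPKM in the saline mean of a region.

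The series concerns chronic orofacial pain in rats and holds 12 RNA sequencing libraries of total RNA, 3 in each of 4 groups. These were thalamus after 0.9% saline, thalamus after CFA, RVM after 0.9% saline and RVM after CFA. The abbreviation CFA is not spelled out in the labels; in work on inflammatory pain it commonly means complete Freund's adjuvant. Strain, age, genotype, dose, injection site and time after injection were not given in the sources used here, nor was it stated whether libraries came from separate animals or whether a thalamus and an RVM library came from the same one. The p-values therefore measure only the spread between these libraries, which may be technical.

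The thalamus relays somatosensory signals, including those from the trigeminal system of the face, to the cortex. The RVM holds serotonergic and other neurons that project to the spinal and trigeminal dorsal horn and can facilitate or inhibit pain signals there. In both regions microglia and astrocytes respond to inflammation by expressing antigen-presentation, complement and acute-phase genes, and neurons carry the peptides and receptors of pain modulation. A difference between the regions asks whether one of them responded more than the other, a question that 2 separate lists of changed genes do not answer. In bulk tissue, fewer cells of a type and less RNA per cell cannot be told apart.

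The libraries held 14944794 to 19243108 reads, recovered from the FPKM values and gene lengths. The summed level of 15 hindbrain genes, mostly Hox genes that mark the position along the body axis, was 121 to 154 FPKM in the RVM libraries and 0.0729 to 0.738 FPKM in the thalamus libraries. Tcf7l2, which marks thalamic neurons, was at 28.9 to 130 FPKM in thalamus and at 1.31 to 2.10 FPKM in RVM. The extraction text of the labels names retina, whereas the sample titles and tissue labels were taken as the source of each library. Several libraries stood apart from their group. In RVM CFA library 2 the genes that rose in thalamus were close to the saline level. Thalamus CFA libraries 1 and 2 held high levels of choroid plexus genes, and thalamus saline 1 and CFA 1 held the lowest summed level of thalamic neuron genes in their groups (757 and 326 FPKM). Results that rest on these libraries are given with and without them.

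In a fit of all 12 libraries with no block for the replicate number, no gene passed the test for a difference between the regions, and that count depended on the block. With limma and Benjamini-Hochberg adjustment at 0.05, 0 of 13738 genes (0% of those tested) were called and the smallest adjusted p was 0.27. At an unadjusted p under 0.05 there were 1560 genes (11.4%), 720 with a higher CFA effect in thalamus (5.24%) and 840 with a lower one (6.11%), against 687 that this threshold gives on average without any difference. With the replicate number as a block in the thalamus libraries alone, limma called 406 genes (2.96%), 109 higher (0.793%) and 297 lower (2.16%). That block was chosen after seeing the data, since same-numbered thalamus libraries deviated together and same-numbered RVM libraries did not, and with the number as a block in all 12 libraries 0 genes were called. Values below are from the fit with no block unless another is named. A fit with limma-voom on the recovered reads also called 0 genes, with 1156 higher and 295 lower (2.15%) at an unadjusted p under 0.05. The split between the directions moved with some scalings of the libraries. Giving each library the same FPKM total moved the median difference of all genes from -0.05 to 0.10. The split was then 1547 higher and 233 lower (1.7%). Median-of-ratios scaling, which divides each library by its median ratio to the genes' geometric means, left 739 higher and 807 lower. The precision behind this was limited. The 95% interval of a gene's difference reached 0.42 log2 units to either side at the median (quartiles 0.31 and 0.61). Differences smaller than that could not be told from 0 for many genes at 3 libraries per group. The intervals are not adjusted for the number of genes. Far larger differences were not called either, as for Il1rn at 2.80.

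The effects of the single regions in the same limma fit were unequal in number. In thalamus 1757 genes passed (12.8%), 952 that rose with CFA (6.93%) and 805 that fell (5.86%). This split depended on the scaling. With the same FPKM total 1375 were higher and 128 lower (0.932%), and with voom 1332 and 137 (0.997%). Quantile normalization gave 860 and 311, and median-of-ratios scaling 952 and 739. With the number as a block in thalamus alone 1411 were higher (10.3%) and 2535 lower (18.5%), all of the 1757 among them. In RVM 0 genes passed (0% of those tested), the smallest adjusted p was 0.123, and 1242 genes were at an unadjusted p under 0.05. A pass in one region and not in the other does not show a difference, and the test of the difference itself called none in this fit. Across the 13738 genes the effects in the regions, which share no library, correlated with a Pearson coefficient of 0.61 and a Spearman coefficient of 0.35. The genes are not independent replicates, and the Pearson coefficient is drawn by the genes with large rises.

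**Figure D1:**
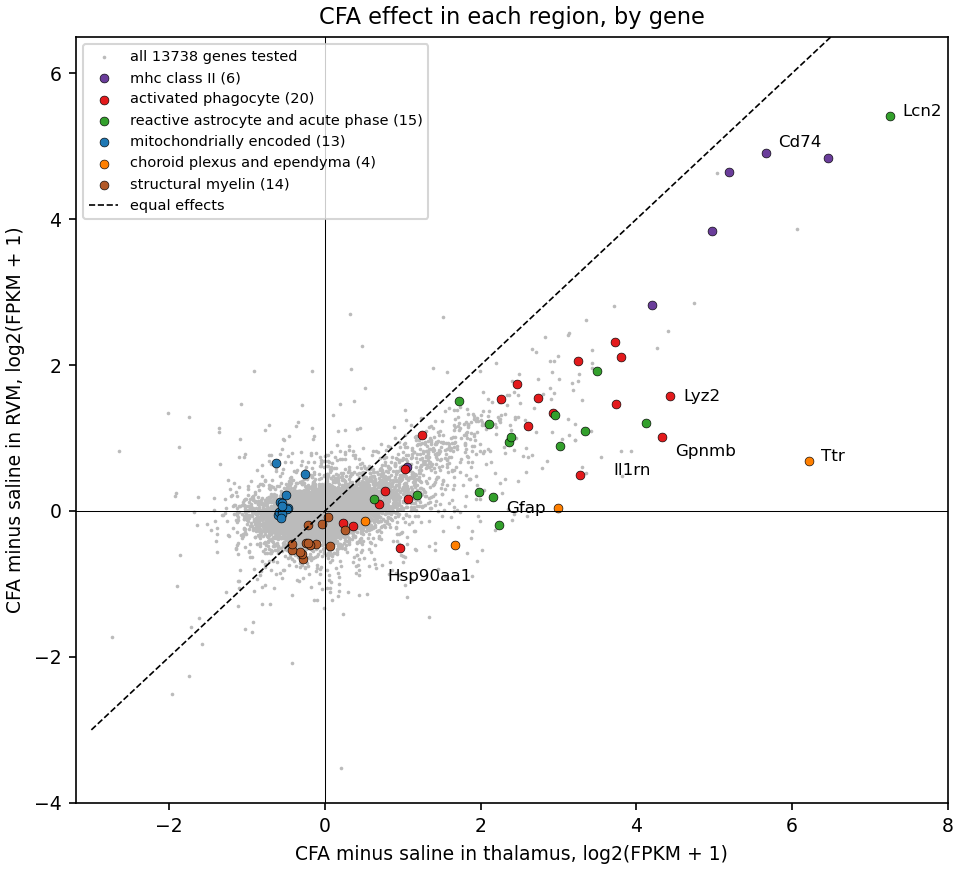
Each point is 1 of 13738 genes, with its CFA effect in thalamus on the x axis and in RVM on the y axis, both in log2(FPKM + 1), and 6 gene lists coloured (number tested in brackets). Most coloured immune and glial genes lie to the right of 0 on the x axis and below the dashed line of equal effects, with Lcn2 at 7.26 and 5.42 and Ttr at 6.21 and 0.68.

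The genes that rose in thalamus were higher on the whole in RVM too, by less. Of the 952, 866 had a positive RVM effect, and the medians were 1.04 in thalamus, 0.38 in RVM and 0.60 for the difference. This set was chosen by its thalamus effect, which enters the difference, so its median difference is a description and not evidence. In single RVM CFA libraries, the median of these genes above the RVM saline mean was 0.55 in library 1, 0.10 in library 2 and 0.45 in library 3. The corresponding thalamus medians were 1.31, 0.89 and 0.91. Library 2 of the RVM CFA group therefore showed about the saline level where the other 2 libraries of its group were raised. Among the 144 genes that rose by over 2 log2 units in thalamus, the 3 RVM CFA libraries were at 1.91, 0.40 and 1.56, and the median SD of log2 values in that group was 0.86, against 0.21 in RVM saline, 0.23 in thalamus saline and 0.34 in thalamus CFA. The 805 genes that fell in thalamus did so by a median of -0.44, and their RVM median was -0.08, with 615 negative. Among all 13738 genes tested, 6025 had a positive RVM effect and 7713 a negative one.

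**Figure D2:**
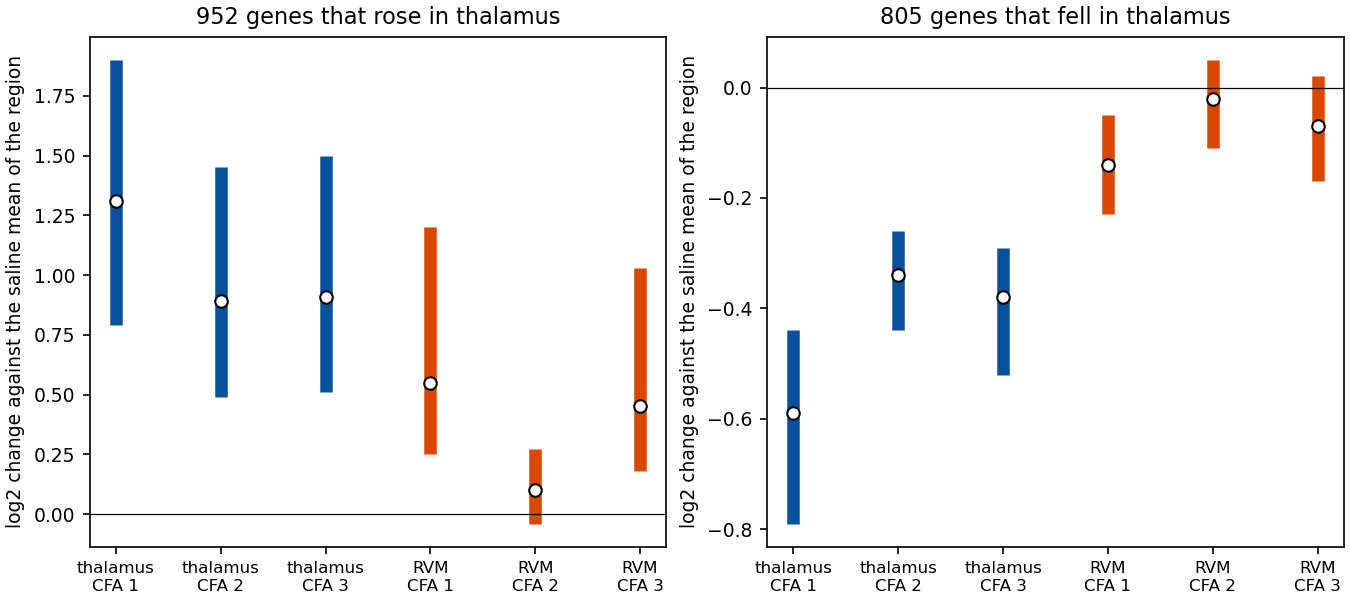
White points are the median, over the 952 genes that rose (left) and the 805 that fell (right) in thalamus, of each CFA library's log2(FPKM + 1) minus the saline mean of its region, and bars span the quartiles over genes. RVM CFA 2 sits at 0.10 on the left, below RVM CFA 1 at 0.55 and RVM CFA 3 at 0.45, and all RVM medians lie nearer to 0 than the thalamus ones.

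Leaving out RVM CFA library 2 changed what was called within the RVM and not what was called between the regions. Without it limma called 367 genes in RVM (2.67% of 13723), 343 higher (2.5%) and 24 lower (0.175%). Of the 343, 316 were among the 952 that rose in thalamus with all libraries, which is 92.1% of the RVM genes and 33.2% of the thalamus genes. Of the 24 lower genes 6 were among the 805 that fell in thalamus, 25% and 0.745% of the lists. Among all genes tested, 6.93% rose and 5.86% fell in thalamus. Library 2 was left out because the genes that rose in thalamus were near the saline level in it. The overlap of higher genes is therefore a description and not evidence, as are the RVM calls without that library below. The difference still had 0 calls, a smallest adjusted p of 0.085, and 516 higher (3.76%) and 541 lower genes (3.94%) at an unadjusted p under 0.05. The median difference over the thalamus risers was then 0.39, and over those that rose by more than 2 log2 units it was 0.84, with a median RVM effect of 1.72 in the latter.

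The 8 genes with the smallest p for a larger effect in thalamus were Il1rn, Cd14, Gpnmb, Slamf9, Prcp, Fabp4, Vasp and Fn1. Of these, Il1rn, Cd14, Slamf9 and Fabp4 were under 1 FPKM in the thalamus saline mean and passed the filter through their CFA libraries. Ccl2, Il1b, C5ar1, S100a8, RT1-Ba and Ttr, described below, also missed the filter in saline libraries alone. The values of such genes describe a set selected in part by its CFA level. Il1rn encodes the secreted antagonist of the interleukin-1 receptor. It was at 0.197, 0.183 and 0.326 FPKM with saline and 16.9, 9.72 and 14.4 with CFA in thalamus, against 0.303, 0.878 and 0.621 with saline and 2.80, 0.640 and 2.0 with CFA in RVM. All thalamus CFA libraries were above every saline library, while RVM CFA library 2 lay within the range of RVM saline. The difference was 2.80 ± 0.41 (SE, n = 3 libraries per group, 95% interval 1.88 to 3.71, limma adjusted p = 0.27). Without RVM CFA library 2 it was 2.45 (limma adjusted p = 0.085), and the RVM effect of 1.09 passed (limma adjusted p = 0.0383).

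Gpnmb, a transmembrane glycoprotein of lipid-laden and phagocytic macrophages and microglia, was at 3.86, 2.95 and 2.07 FPKM with saline and 98.2, 54.1 and 87.2 with CFA in thalamus. Its RVM levels were 4.90, 3.98 and 3.06 with saline and 14.2, 4.01 and 11.7 with CFA. The saline levels of the regions overlapped, and every thalamus CFA library was above every RVM CFA library. Its difference of 3.32 ± 0.54 (95% interval 2.14 to 4.51, limma adjusted p = 0.27) was 2.83 without RVM CFA library 2 (limma adjusted p = 0.085). Lyz2, the lysozyme of macrophages, was at 36.8, 21.8 and 21.1 FPKM with saline and 584, 620.5 and 534 with CFA in thalamus, against 44.5, 32.0 and 31.1 with saline and 143, 50.4 and 170.1 with CFA in RVM. CFA libraries were above saline libraries in both regions without overlap. The Lyz2 difference was 2.87 ± 0.54, and 2.33 without RVM CFA library 2 (limma adjusted p = 0.0898).

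Cd14, the coreceptor for lipopolysaccharide, was at 0.740, 0.440 and 0.890 FPKM with saline and 15, 12.5 and 10.6 with CFA in thalamus. The RVM libraries were at 1.78, 0.802 and 0.888 with saline and 3.66, 1.80 and 3.57 with CFA, so the RVM groups came close to touching at library 2. The difference was 2.13 ± 0.33 (95% interval 1.40 to 2.87, limma adjusted p = 0.27). Slamf9, a leukocyte surface receptor, was at 0.0894 to 0.130 FPKM with saline and 3.84 to 4.43 with CFA in thalamus, against 0.514 to 0.995 and 0.780 to 2.07 in RVM, a difference of 1.66 ± 0.28. Vasp, an actin regulator, Fn1, the matrix protein fibronectin, and Prcp, a lysosomal carboxypeptidase, were also among the 8 smallest p-values in this direction, with 0.99 ± 0.18, 1.29 ± 0.24 and 0.96 ± 0.17. For Prcp only the thalamus effect was positive, at 0.80, beside -0.16 in RVM.

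**Figure D3:**
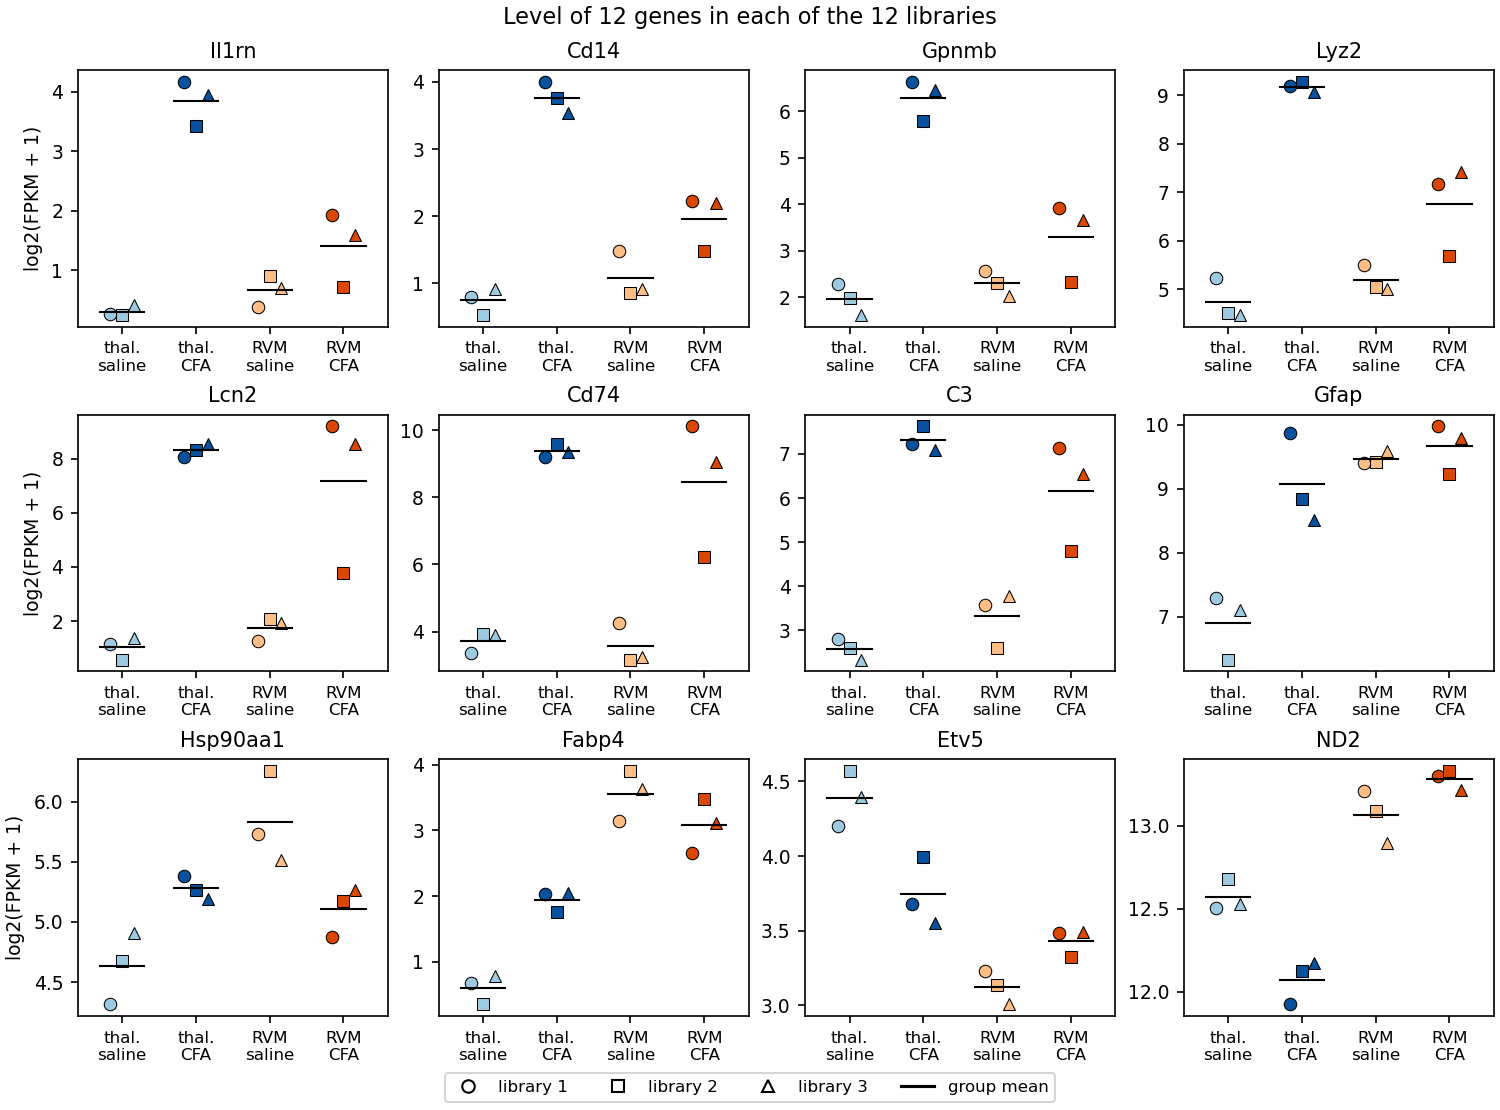
Level of 12 genes, log2(FPKM + 1), in each library, with 3 points per group and a line at the group mean (y axes differ between panels and do not start at 0). Il1rn, Cd14, Gpnmb and Lyz2 are higher in all 3 thalamus CFA libraries than in any RVM CFA library, whereas Lcn2 and Cd74 reach their highest level in RVM CFA 1 and are far lower in RVM CFA 2.

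The promoters of Il1rn, Gpnmb and Slamf9 are shown because these are 3 of the 4 genes with the smallest p for a larger thalamus effect; that of Cd14, the second by p, is not shown. The sequences are the 250 bases upstream of the annotated start in RefSeq GRCr8, 5′ to 3′ on the gene's strand. Capitals mark matches, on either strand, to motifs of AP-1 (TGANTCA), PU.1 (GAGGAAGT) and the TATA box (TATAAA), and to an NF-kB motif that reads 3 G, any 2 bases, 3 T and 2 C. No matches overlap here. The windows are chr3:27520072-27520321 for Il1rn, chr4:79340878-79341127 for Gpnmb and chr13:87474077-87474326 for Slamf9, all on the plus strand.
Il1rn: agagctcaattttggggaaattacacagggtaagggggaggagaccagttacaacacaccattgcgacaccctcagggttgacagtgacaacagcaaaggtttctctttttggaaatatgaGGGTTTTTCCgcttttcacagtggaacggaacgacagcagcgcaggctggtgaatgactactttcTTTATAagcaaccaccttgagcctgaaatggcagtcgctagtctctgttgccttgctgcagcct
Gpnmb: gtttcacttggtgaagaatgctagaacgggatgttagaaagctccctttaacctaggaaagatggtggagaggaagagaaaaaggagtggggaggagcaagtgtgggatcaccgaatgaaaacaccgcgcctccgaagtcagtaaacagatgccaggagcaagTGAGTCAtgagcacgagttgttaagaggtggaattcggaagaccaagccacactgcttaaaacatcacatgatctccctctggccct
Slamf9: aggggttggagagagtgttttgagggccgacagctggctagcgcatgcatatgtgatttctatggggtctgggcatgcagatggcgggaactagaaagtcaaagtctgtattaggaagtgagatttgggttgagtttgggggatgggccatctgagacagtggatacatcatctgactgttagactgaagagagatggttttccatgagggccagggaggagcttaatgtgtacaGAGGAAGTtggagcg
The Il1rn window held an NF-kB match from 129 to 120 bases before the start and a reverse TATA match from 64 to 59. Gpnmb held an AP-1 match from 87 to 81, and Slamf9 a PU.1 match from 15 to 8 bases before the start. Of 33469 promoter windows of this length, 1.3% held the NF-kB motif, 6.34% the AP-1 motif, 2.04% the PU.1 motif and 12.9% the TATA motif. These matches are letters in a window and do not show a bound factor.

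Counts by list, here and below, are to be read beside the shares over all genes tested. For the difference 5.24% were higher and 6.11% lower at an unadjusted p under 0.05. In thalamus 6.93% passed as higher and 5.86% as lower. The lists were chosen with earlier results of these data known. Several immune and glial lists hold genes that passed the filter only through CFA libraries. The filter was reached in saline by 9 of 13 tested MHC class I, 12 of 14 complement and 12 of 15 reactive astrocyte genes. For interferon response it was 20 of 25, and for cytokines and NF-kB 14 of 20. Counts of these lists are therefore in part fixed by selection. On saline-filtered genes the 5 medians were 0.61, 0.8, 1.5, 0.74 and 0.77. In the list of activated phagocyte genes 20 of 25 genes were tested, and 16 of these reached the filter in saline. None passed for the difference, 14 were higher and 0 lower at an unadjusted p under 0.05, and the median difference was 1.19 beside -0.05 over all genes tested. In thalamus 16 of the 20 rose, with a median of 2.53, and the RVM median was 1.10. Without RVM CFA library 2, 12 of 20 passed as higher in RVM and the median difference was 0.63. Homeostatic microglial genes, which mark microglia at rest, had a smaller median difference. Their 13 tested genes had a median of 1.02 in thalamus and 0.81 in RVM and a median difference of 0.34, which was 0.10 without RVM CFA library 2. Among them Tyrobp, an adaptor of microglial receptors, was at 12.7 to 15.6 FPKM with saline and 103 to 134 with CFA in thalamus, against 22.0 to 26.5 with saline and 127, 38.1 and 98.7 with CFA in RVM, a difference of 1.21 ± 0.48. Aif1, the microglial protein IBA1, had a difference of 0.65 ± 0.56 (95% interval -0.59 to 1.90).

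Antigen presentation by MHC class II had the highest medians of any list in both regions, and there RVM CFA library 2 set the sign of the difference. Of 11 listed genes 6 were tested, and only 2 of these reached the filter in saline libraries alone, so the list's values describe genes selected in part by their CFA level. Cd74, the invariant chain of class II molecules, was at 9.25, 14.2 and 14.0 FPKM with saline and 595, 772 and 653 with CFA in thalamus. In RVM it was at 18.2, 7.94 and 8.42 with saline and 1108, 73.6 and 529.9 with CFA. All CFA libraries were above all saline libraries of their region, and the RVM CFA libraries were both the highest and the lowest of the CFA libraries. The Cd74 difference of 0.75 ± 1.07 (95% interval -1.62 to 3.12) was -0.37 without RVM CFA library 2.

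RT1-Ba, a class II alpha chain, was at 0 to 1.33 FPKM with saline and 162, 101 and 106 with CFA in thalamus, against 0.369 to 2.18 with saline and 378, 9.52 and 69.3 with CFA in RVM. Its difference was 1.61 ± 1.39, and 0.29 without RVM CFA library 2. Over the list the medians were 5.08 in thalamus, 4.25 in RVM and 0.94 for the difference, which became -0.14 without that library, when 5 of 6 genes passed as higher in RVM. RT1 genes are members of a multigene family of similar sequence, and how reads were shared among them was not given in the sources used here. MHC class I and immunoproteasome genes had a median difference of 0.80 over 13 tested genes, with 5 higher and 0 lower at an unadjusted p under 0.05, and 0.37 without RVM CFA library 2. B2m, the light chain of class I, had a difference of 0.90 ± 0.30.

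Complement genes tag debris and synapses for phagocytes. The median difference of 14 tested genes was 0.95, with 8 higher and 0 lower at an unadjusted p under 0.05, and it was 0.61 without RVM CFA library 2. C3, the central complement component, was at 5.98, 5.09 and 4.04 FPKM with saline and 149.8, 196 and 136 with CFA in thalamus, against 11, 5.06 and 12.8 with saline and 139, 27.0 and 93.0 with CFA in RVM. CFA and saline did not overlap in either region, and RVM CFA library 2 was again the lowest of the CFA libraries. The C3 difference was 1.89 ± 0.71 (95% interval 0.32 to 3.46, limma adjusted p = 0.393), and 1.21 without that library. C5ar1, the receptor for the complement fragment C5a, had 1.28 ± 0.32 and C1r, a protease of the classical pathway, 1.89 ± 0.45.

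The median of interferon response genes moved with a single library. Over 25 tested genes it was 0.73, with 3 higher and 0 lower at an unadjusted p under 0.05, and 0.16 without RVM CFA library 2. Ifitm1, an antiviral membrane protein, had the smallest p of the list with a difference of 2.82 ± 0.72, with 1.60 to 1.76 FPKM after saline and 46.9, 11.1 and 34.1 after CFA in thalamus, against 1.70 to 3.41 and 5.08, 1.34 and 6.66 in RVM. Cytokine and NF-kB genes, 20 tested, had a median difference of 0.79, 13 higher and 0 lower, and 0.51 without that library. Il1b, the proinflammatory interleukin-1 beta, was at 0.0433 to 0.252 FPKM with saline and 11.2, 6.15 and 12.9 with CFA in thalamus. Its RVM levels were 0 to 0.692 with saline and 3.14, 0.975 and 1.81 with CFA, a difference of 2.01 ± 0.45.

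Chemokine genes were mostly low in saline. Of 22 listed genes 10 were tested, with 5 higher and 1 lower at an unadjusted p under 0.05 and a median difference of 1.05, which was 0.12 when only genes reaching the filter in saline were kept. Ccl2, which attracts monocytes, was at 0.241, 0 and 0.0724 FPKM with saline and 23.8, 18.3 and 6.63 with CFA in thalamus, against 0.296, 0.429 and 0.795 with saline and 2.92, 0.522 and 2.08 with CFA in RVM. RVM CFA library 2 lay among the RVM saline libraries. The Ccl2 difference was 2.98 ± 0.60 (95% interval 1.65 to 4.32, limma adjusted p = 0.27). S100a8, a calcium-binding protein of neutrophils and monocytes, was at 10.6, 2.19 and 7.98 FPKM in thalamus CFA and 2.17 to 2.35 in RVM CFA, a difference of 1.73 ± 0.54. The summed level of the neutrophil and monocyte list was 138 to 171 FPKM in thalamus CFA and 159, 41.1 and 123 in RVM CFA, beside 40.8 to 47.4 and 29.5 to 30.2 in the saline groups. The part of such cells in the results was not tested.

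Reactive astrocyte and acute-phase genes had a median difference of 1.65 over 15 tested genes, the highest among the lists with more than 4 tested genes. At an unadjusted p under 0.05, 11 were higher and 0 lower, all 15 rose in thalamus, and the median without RVM CFA library 2 was 1.05. Gfap, the intermediate filament of astrocytes, was at 155, 79.3 and 137 FPKM with saline and 936, 455 and 364 with CFA in thalamus. The RVM libraries were at 674, 679 and 773 with saline and 1004, 602 and 884 with CFA. The RVM saline level thus exceeded the thalamus saline level in every library and lay within the range of thalamus CFA, and the RVM groups overlapped. The Gfap difference was 1.97 ± 0.49 (95% interval 0.89 to 3.04, limma adjusted p = 0.317), with effects of 2.16 in thalamus and 0.20 in RVM, and it was 1.75 without RVM CFA library 2.

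Lcn2, an iron-binding acute-phase protein released by reactive astrocytes, had the largest CFA effects among the tested genes of these lists and an uncertain difference. It was at 1.24, 0.491 and 1.63 FPKM with saline and 264, 319.9 and 372 with CFA in thalamus, against 1.39, 3.23 and 2.78 with saline and 583, 12.8 and 369 with CFA in RVM. RVM CFA libraries 1 and 3 reached or exceeded the thalamus CFA level and library 2 did not. The Lcn2 effects were 7.26 in thalamus and 5.42 in RVM, and the difference of 1.84 ± 1.51 (95% interval -1.50 to 5.19) was 0.15 without RVM CFA library 2. Cd44, a hyaluronan receptor of reactive glia, was at 11.3, 6.87 and 7.71 FPKM in thalamus CFA from 0.894 to 2.57 in saline, and at 5.25, 3.47 and 4.74 in RVM CFA from 3.12 to 3.84. Its difference of 1.71 ± 0.35 was 1.57 without RVM CFA library 2. Astrocyte homeostasis genes, which serve potassium, water and glutamate uptake, had a median difference of -0.08.

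**Figure D4:**
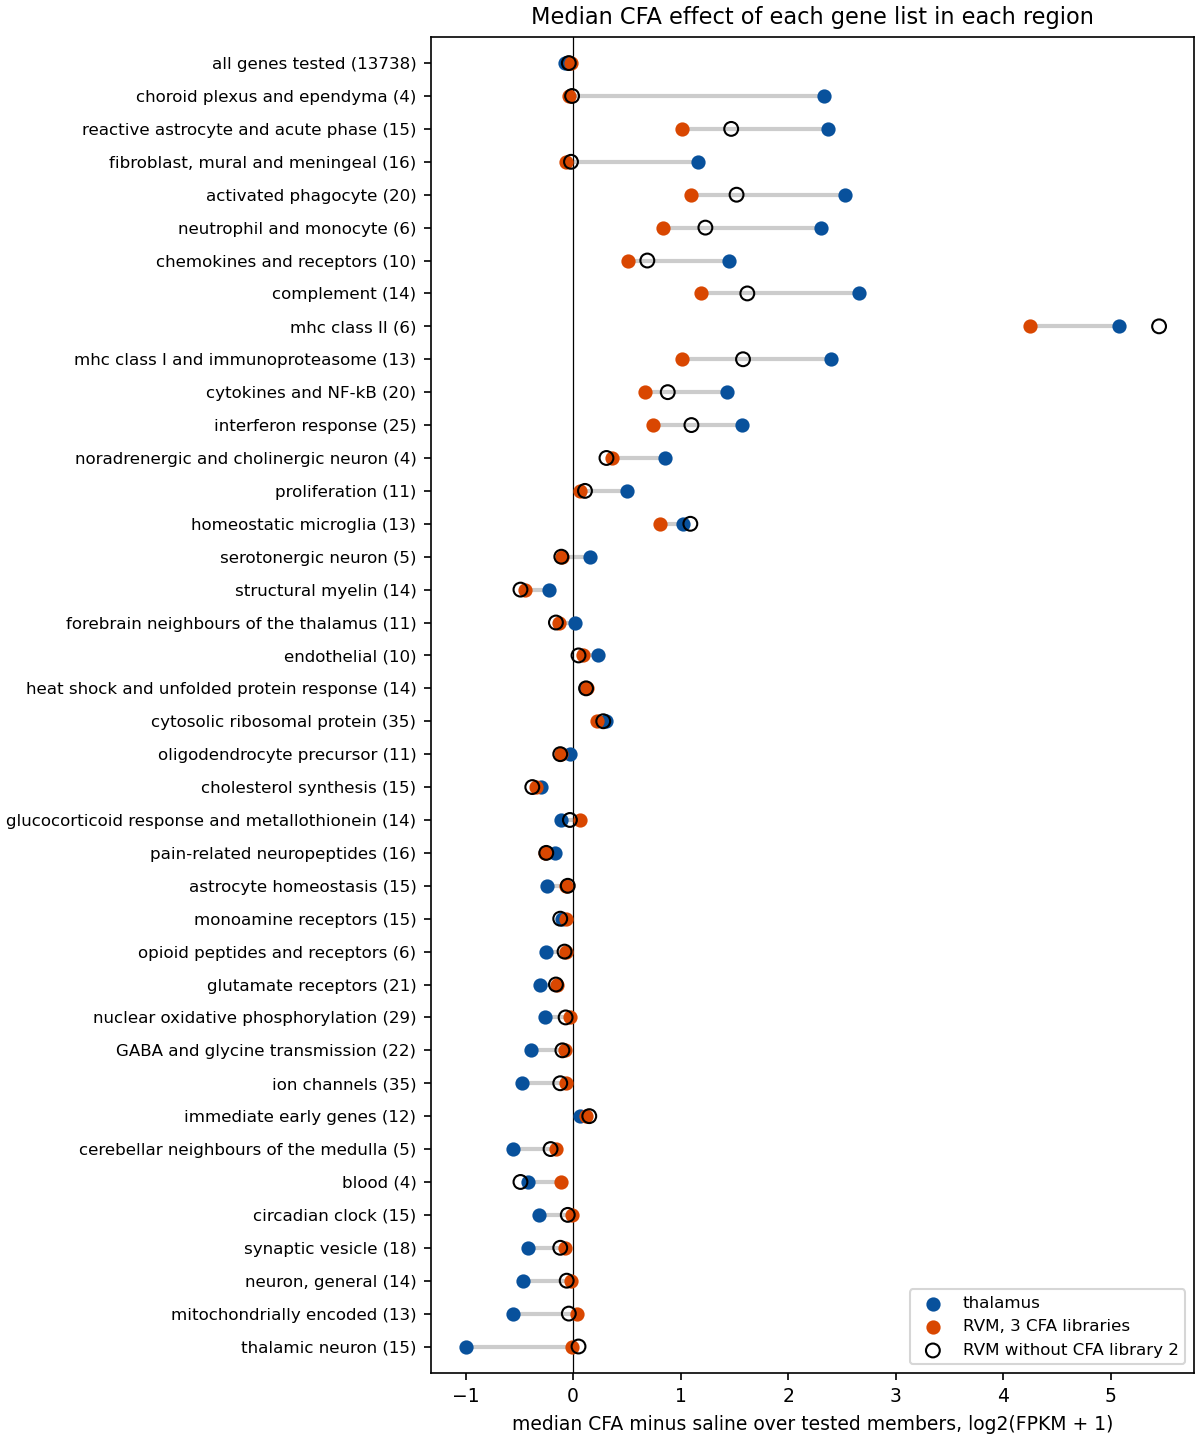
Median CFA effect over the tested genes of each list (number in brackets) in thalamus (blue), in RVM with 3 CFA libraries (orange) and in RVM without CFA library 2 (open circles), in log2(FPKM + 1). MHC class II has the highest medians (5.08 and 4.25) and its open circle lies beyond the thalamus value, while reactive astrocyte genes stay lower in RVM either way.

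A small number of genes lay on opposite sides of saline in the regions. CFA and saline libraries did not overlap in either region, with CFA higher in thalamus and lower in RVM, for 36 genes (0.262% of those tested), and with the reverse for 48 (0.349%). By comparison 486 genes (3.54%) were higher without overlap in both regions and 465 (3.38%) lower in both. Groups of 3 libraries can also separate without any effect, and whether the counts of 36 and 48 exceed that was not tested. The genes below are therefore examples and not evidence of opposite effects. Hsp90aa1, the stress-inducible form of the chaperone HSP90, was at 18.9, 24.5 and 29.0 FPKM with saline and 40.6, 37.4 and 35.6 with CFA in thalamus. In RVM it was at 52.1, 75.3 and 44.7 with saline and 28.3, 35.1 and 37.5 with CFA. The saline levels of the regions were apart and the CFA levels overlapped. The difference was 1.37 ± 0.28 (95% interval 0.76 to 1.98, limma adjusted p = 0.27), made of 0.65 in thalamus and -0.73 in RVM, and neither effect passed. The difference was 1.41 without RVM CFA library 2. Vcan, a matrix proteoglycan of oligodendrocyte precursors, was also among the 36, with 0.62 ± 0.19.

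Fabp4, a fatty acid carrier of macrophages and capillary endothelium, was at 0.603, 0.280 and 0.725 FPKM with saline and 3.08, 2.38 and 3.16 with CFA in thalamus, against 7.87, 14.0 and 11.4 and 5.32, 10.1 and 7.65, respectively, in RVM. The thalamus groups were apart and the RVM groups overlapped. Its difference was 1.82 ± 0.33 (limma adjusted p = 0.27), and 2.01 without RVM CFA library 2.

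Etv5, a transcription factor downstream of growth factor signalling, was the gene with the smallest p for a lower effect in thalamus and one of the 48. It was at 17.4, 22.7 and 20.0 FPKM with saline and 11.8, 14.9 and 10.8 with CFA in thalamus, and at 8.40, 7.82 and 7.05 and 10.2, 9.01 and 10.3, respectively, in RVM. The groups did not overlap in either region and lay in opposite order. The Etv5 difference was -0.95 ± 0.18 (95% interval -1.35 to -0.55, limma adjusted p = 0.27), and -1.01 without RVM CFA library 2. Wdtc1, an adaptor of ubiquitin ligases, showed the same pattern with a smaller difference of -0.38 ± 0.08.

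Genes encoded by the mitochondrial genome were lower in the thalamus after CFA and near 0 change in the RVM. Of the 13 genes, all tested, 12 had a lower effect in thalamus at an unadjusted p under 0.05 and none higher, with medians of -0.56 in thalamus, 0.04 in RVM and -0.58 for the difference. In thalamus 10 of 13 fell, and this count depended on the scaling. It was 4 with the same FPKM total, 5 with voom and 1 with quantile normalization. ND2, a subunit of respiratory complex I, was at 5804, 6567 and 5912 FPKM with saline and 3884, 4455 and 4614 with CFA in thalamus. Its RVM levels were 9459, 8689 and 7619 with saline and 10091, 10287 and 9499.5 with CFA. The groups did not overlap in either region. The fall of ND2 in thalamus did not pass with the same FPKM total or with quantile normalization. The ND2 difference was -0.72 ± 0.16 (95% interval -1.07 to -0.36, limma adjusted p = 0.27), and -0.55 when each library was given the same FPKM total. With the same FPKM total, quantile normalization and voom the list's median difference was -0.42, -0.32 and -0.45. The median of all genes was then 0.10, -0.03 and 0.08. With median-of-ratios scaling the list was at -0.57, beside -0.04 for all genes. Nuclear genes of oxidative phosphorylation had a median difference of -0.21 over 29 tested genes, 0 higher and 5 lower at an unadjusted p under 0.05. That list depended on the scaling. Its median was -0.05 with 0 lower under the same FPKM total, -0.08 with 0 lower under voom, and -0.07 under quantile normalization. Under median-of-ratios scaling it was -0.21.

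Neuronal lists had negative median effects in thalamus. Their RVM medians were nearer 0, from -0.15 for glutamate receptors to -0.02 for general neuronal genes. Glutamate receptor genes, 21 tested, and GABA and glycine transmission genes, 22 tested, had median differences of -0.19 and -0.21. Of these 2 and 0 were lower and none higher at an unadjusted p under 0.05. The 14 general neuronal genes had a median difference of -0.43, the 18 synaptic vesicle genes -0.38 and the 35 ion channel genes -0.29, with 2, 3 and 4 lower and none higher at an unadjusted p under 0.05. With the same FPKM total the medians were -0.27, -0.22 and -0.14 and the lower genes 0, 2 and 1, and with voom -0.31, -0.25 and -0.16 and 0, 1 and 3. In each of these scalings 1 ion channel gene was higher. With median-of-ratios scaling the medians of the general neuronal, synaptic vesicle and ion channel lists were -0.43, -0.37 and -0.28. Without thalamus CFA library 1 they were -0.29, -0.22 and -0.15. Without thalamus CFA libraries 1 and 2 they were -0.22, -0.12 and -0.15, and without thalamus saline 1 and CFA 1 -0.35, -0.39 and -0.34. Nsmf, a messenger from synapse to nucleus, was at 253, 398 and 356 FPKM with saline and 166, 202 and 178 with CFA in thalamus, and at 44.2 to 48.3 and 46.8 to 47.9, respectively, in RVM. The thalamus groups were apart while the RVM groups overlapped. The Nsmf difference was -0.89 ± 0.20 (95% interval -1.33 to -0.45, limma adjusted p = 0.27). Camk2n1, an inhibitor of the synaptic kinase CaMKII, had -0.85 ± 0.18, Git1, a scaffold at synapses, -0.59 ± 0.11, Dynlt3, a light chain of dynein, -0.52 ± 0.11, and the row of the microRNA gene Mir2861 -0.72 ± 0.16.

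Markers of thalamic neurons had the lowest median difference of the lists, -0.82 over 15 tested genes, but 1 alone, Prkcd, was lower at an unadjusted p under 0.05. In thalamus none fell and 1 rose, Tnnt1, a troponin, named after its values were seen (1.04, limma adjusted p = 0.0359). Prkcd, a protein kinase of thalamic relay neurons, was at 137, 279 and 283 FPKM with saline and 28.6, 187 and 118 with CFA in thalamus, against 3.57 to 4.60 with saline and 4.52 to 9.34 with CFA in RVM. Thalamus saline 1 and CFA 1 were the lowest of their groups, as for the summed level of the list, and the groups overlapped. The Prkcd difference was -1.99 ± 0.80 (95% interval -3.76 to -0.22, limma adjusted p = 0.408). Without thalamus CFA library 1 the list's median was -0.28. Without thalamus saline 1 and CFA 1 it was -0.66, and 3 of the 15 were called lower for the difference. That pair stood out by the level of these same genes, so those calls are a description and not evidence. With the number as a block in thalamus alone 7 were called lower for the difference and 12 fell in thalamus. The part of the dissected tissue in these values was not tested.

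Choroid plexus genes included the largest difference of any tested gene, and it was uncertain. Of 14 listed genes 4 were tested, and only 1 of these, not Ttr, reached the filter in saline. Ttr, the transthyretin secreted by the choroid plexus, was at 18, 2.31 and 4.91 FPKM with saline and 9934, 2361 and 5.50 with CFA in thalamus, and at most 4.03 in any RVM library. Libraries 1 and 2 of thalamus CFA were high and library 3 was within the saline range. The Ttr difference was 5.54 ± 2.94 (95% interval -0.97 to 12.04), and -0.83 without thalamus CFA libraries 1 and 2. The summed level of the 13 matched genes of the list was 10900, 2690 and 68.3 FPKM with CFA and 59.8 to 99.3 with saline in thalamus. Folr1, Kl and Kcnj13, other choroid plexus genes, were at 83.0, 41.3 and 49.2 FPKM in thalamus CFA 1 and at 4.69, 0.486 and 0.623 in thalamus CFA 3.

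Fibroblast, mural and meningeal genes followed a similar distribution over libraries. Their summed level was 774, 260 and 219 FPKM with CFA and 176 to 212 with saline in thalamus, and the median difference of 16 tested genes was 1.22, or 0.17 without thalamus CFA libraries 1 and 2. Col3a1, a fibrillar collagen, was at 63.8, 8.25 and 28.0 FPKM in thalamus CFA against 2.0 to 3.46 in RVM CFA. Its difference was 2.66 ± 0.81 (limma adjusted p = 0.363), and 2.82 without those libraries. Without them the median difference was 0.88 for activated phagocytes, 0.78 for complement, 1.40 for reactive astrocytes and 0.37 for the interferon response, where it had been 0.73. The part of choroid plexus and meningeal tissue in the results was not tested.

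Myelin and cholesterol genes had negative RVM effects throughout, as had 7713 of all 13738 genes tested. All 14 tested structural myelin genes had a negative RVM effect, with a median of -0.45 beside -0.22 in thalamus, and none passed in either region. The median difference was 0.23, with none of the 14 at an unadjusted p under 0.05. All 15 cholesterol synthesis genes had a negative RVM effect too, median -0.35, beside -0.30 in thalamus, and the median difference was 0.03. In thalamus 2 of the 15 passed as lower, and 1 did with the same FPKM total or with voom. Sqle, which makes squalene epoxide, was at 87.5, 100.1 and 109 FPKM with saline and 69.4, 75.1 and 68.1 with CFA in RVM, against 33.6 to 41.9 and 30.9 to 36.4 in thalamus. The RVM groups were apart and the thalamus groups overlapped. The Sqle difference was 0.38 ± 0.15 (limma adjusted p = 0.409). Enpp6, an enzyme of newly formed oligodendrocytes, had effects of 0.03 in thalamus and -1.06 in RVM and a difference of 1.08 ± 0.44.

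Genes of pain modulation showed no difference that passed in the fit with no block, and many of their intervals were wide. Of 16 tested pain-related neuropeptide genes 3 were higher and 2 lower at an unadjusted p under 0.05, with a median difference of -0.06. Cck, the precursor of cholecystokinin, was chosen for mention once its values were known. Its thalamus levels were 242, 481 and 469 FPKM with saline and 60.5, 196 and 191 with CFA, against 24.1 to 30.3 and 20.8 to 27.3, respectively, in RVM. The thalamus groups were apart and the RVM groups overlapped. The Cck difference was -1.35 ± 0.58 (limma adjusted p = 0.43), -1.12 without thalamus saline 1 and CFA 1 (limma adjusted p = 0.0334), and -1.35 with the number as a block in thalamus alone (limma adjusted p = 0.0275). Penk, the precursor of enkephalins, was at 35.5, 16.5 and 10.2 FPKM with saline and 7.51, 23.3 and 10.9 with CFA in thalamus, against 131 to 151 with saline and 142 to 164 with CFA in RVM. Groups overlapped in both regions, and the difference was -0.60 ± 0.59 (95% interval -1.90 to 0.70), with a sign that turned in some alternatives. Pdyn, the precursor of dynorphins, had -0.56 ± 0.49 (95% interval -1.65 to 0.54). Bdnf, a neurotrophin that modulates pain circuits, had -0.06 ± 0.30 (95% interval -0.73 to 0.61). Tac1, the precursor of substance P, had 0.84 ± 0.38 (95% interval 0.01 to 1.67, limma adjusted p = 0.439), and Gal, the precursor of galanin, 0.92 ± 0.34.

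Fos, the immediate early gene used as a marker of neuronal activity, was at 24.9, 37.7 and 20.3 FPKM with saline and 16.9, 23.0 and 7.58 with CFA in thalamus, against 6.72 to 9.37 with saline and 7.29 to 9.59 with CFA in RVM. The groups overlapped in both regions, and the difference was -0.90 ± 0.47 (95% interval -1.95 to 0.15). Htr5b, a serotonin receptor, was at 38.3, 28.1 and 50.7 FPKM with saline and 18.4, 22.7 and 28.8 with CFA in RVM, with 0.0281 to 2.77 and 2.39 to 4.41 in thalamus, and had a difference of 1.53 ± 0.60 (limma adjusted p = 0.398). Oprm1, Tph2 and Calca were below the filter in a region and were not tested. Oprm1, the mu opioid receptor, was at 1.15 to 8.01 FPKM in thalamus and 0.374 to 0.606 in RVM. Tph2, which makes serotonin, was at 36.3 to 66.2 FPKM in RVM and at most 1.10 in thalamus, and Calca, which encodes CGRP, was at 9.88 to 30.9 and 0.363 to 1.19 FPKM.

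Some alternatives did call genes for the difference. Without thalamus saline 1 and CFA 1, the libraries of their groups lowest in thalamic neuron genes, limma called 146 genes (1.07% of 13654), 32 with a higher effect in thalamus and 114 with a lower one. Among the genes named above these were Il1rn (2.61, adjusted p = 0.0477 by limma), Gpnmb (3.31), Cd14 (2.04), Vasp, Cd44 (1.81), Etv5 (-1.02) and Nsmf (-1.02). The smallest adjusted p there, 0.0136, belonged to Nsmf, to Shank3, a scaffold of excitatory synapses (-1.12), Adarb1, an RNA-editing enzyme and one of the thalamic neuron markers (-0.88), Bgn, the matrix proteoglycan biglycan (1.38), and Spp1, the secreted protein osteopontin (2.87); the last 4 were named after their values were seen. Spp1 was at 17.2, 5.58 and 7.0 FPKM with saline and 157, 57.4 and 94.1 with CFA in thalamus, against 164 to 194 and 229 to 310, respectively, in RVM. Thalamus saline lay far below both RVM groups, and CFA was higher than saline without overlap in both regions. In this alternative thalamus groups held 2 libraries each. The left-out pair stood out by its level of thalamic neuron markers, so a call of such a marker there, as for Adarb1, is not evidence.

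With the number as a block in thalamus alone, 33 of the 101 genes chosen for naming passed for the difference, 18 higher and 15 lower. The block was chosen after seeing the data, and most of these genes by their p for the difference in the same libraries. That count is therefore a description and not evidence. The estimates do not change with this block, and only their errors do. The higher ones included Cd44 (limma adjusted p = 0.0125), Col1a1, a fibrillar collagen (0.0153), Fn1 (0.0216), Il1rn (0.0227), Gpnmb (0.0259), Cd14 (0.0259), Gfap (0.0306), Ccl2 (0.033) and Lyz2 (0.0391). The lower ones included Nsmf (limma adjusted p = 0.0134), Ptpn3, a tyrosine phosphatase (0.0134), Etv5 (0.017), ND2 (0.0423) and Prkcd (0.0478). By list, 4 of 20 activated phagocyte genes, 3 of 15 reactive astrocyte genes and 4 of 16 fibroblast, mural and meningeal genes were called higher, and 7 of 15 thalamic neuron genes and 4 of 35 ion channel genes lower, beside the shares of all genes given above. None of the tested MHC class I, MHC class II or interferon response genes was called.

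With no filter on low values limma called 11 of 24167 genes (0.0455%), 8 higher and 3 lower. Itgax and Cst7, genes of activated microglia that are below 1 FPKM on average in the RVM, were among them and were also named after their values were seen. Cst7, a lysosomal protease inhibitor, was listed at 0 in the 3 thalamus saline libraries and was at 5.59, 4.23 and 6.07 FPKM in thalamus CFA, against 0 to 0.106 with saline and 0.486, 0.143 and 1.00 with CFA in RVM. Its difference of 2.10 ± 0.26 (limma adjusted p = 0.0333) depends on the pseudocount. Itgax, an integrin of phagocytes and dendritic cells, was at 2.55, 1.64 and 2.01 FPKM in thalamus CFA and 0.320, 0.105 and 0.334 in RVM CFA, a difference of 1.37 ± 0.16 (limma adjusted p = 0.0333). Every thalamus CFA library was above every RVM CFA library for both genes.

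**Figure D5:**
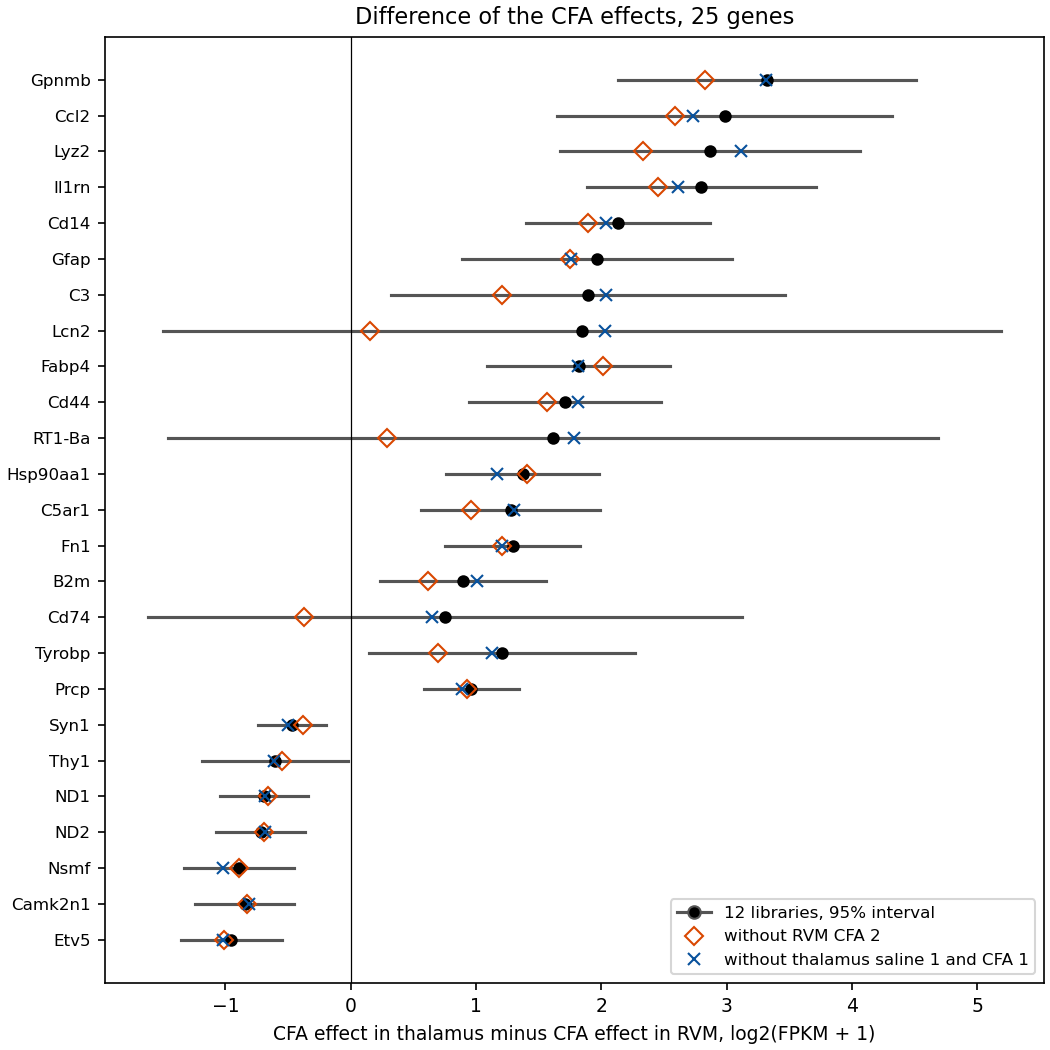
Difference of the CFA effects, thalamus minus RVM in log2(FPKM + 1), for 25 genes: black points and lines are the estimate and 95% interval from 12 libraries, diamonds the estimate without RVM CFA library 2 and crosses that without thalamus saline 1 and CFA 1. Il1rn, Gpnmb and Lyz2 stay above 2 in all 3, whereas Lcn2 (1.84 to 0.15) and Cd74 (0.75 to -0.37) move toward or past 0 without RVM CFA library 2.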

How the data were processed

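Total RNA was sequenced in 12 rat libraries, with TRIzol extraction and Illumina TruSeq libraries per the labels' protocols. The authors deposited FPKM values for 34525 genes with gene lengths, per the file headers; aligner, build, annotation and strandedness were not given in the sources used here. FPKM times gene length gave whole reads for 100% of values within 0.01, so depth was taken from these, and 3 reads correspond to 0.156 to 0.201 CPM. The deposited FPKM carried a further scaling, with the authors' total at 0.9335 to 1.168 times the recovered reads. This ratio went with the group: 1.109 to 1.168 in thalamus CFA, 0.9609 to 1.042 in thalamus saline and 0.9335 to 0.9893 in RVM. A larger total gives lower FPKM for the same reads. The part of this scaling in the genes lower in thalamus was not tested. No library repeated another.

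A linear model of log2(FPKM + 1) over 12 libraries in 4 groups was fitted in limma 3.58.1 (R 4.3.3; empirical Bayes with a trend), and p-values were adjusted by Benjamini-Hochberg over all 13738 genes. The scale understates changes of low genes. Of 734 symbols in 42 lists, 718 matched the table, 3 by synonym. The genes tested, lists and named genes were chosen with earlier results of these data known. Named genes were up to 15 per direction that passed, filled to 8 by the smallest p, the 6 smallest p per direction, up to 4 passing members of each list or else the 2 with the smallest p, and 14 genes of general interest. Rows named only by an identifier were passed over. Promoters were matched by symbol for 9491 of the tested genes. Deviations from the group means of same-numbered saline and CFA libraries correlated across genes by 0.376, 0.109 and 0.234 in thalamus and by -0.0315, -0.0111 and -0.0292 in RVM, so the numbers paired the thalamus libraries by a criterion of over 0.1 in every pair and not the RVM libraries; no label says what a number marks, and thalamus saline 2 correlated more with CFA 3 (0.306) than with CFA 2. Alternatives were other pseudocounts (0.1 and 5), filters, scalings, spread estimates, replicate blocks, voom and left-out libraries. The fits were tested on simulated data.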

Additional observations from a re-analysis of the deposited data

How the results depend on the processing

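Genes called for the difference numbered 0 with other pseudocounts, a filter at 5 FPKM or on saline alone, every scaling tried, the replicate number as a block in all libraries, robust and weighted spread estimates and voom. There were 11 without a filter (8 higher, 3 lower), 146 (32 higher, 114 lower) without thalamus saline 1 and CFA 1, and 0 to 15 when single libraries were left out (0 to 4 higher, 0 to 11 lower; 15 without thalamus saline 1, and Fn1 alone without thalamus CFA 2). Thalamus calls were 1171 with quantile normalization, 181 without thalamus CFA 1 and 2, and 593 to 3096 with single libraries left out (593 without saline 2, 767 without saline 3, 717 without CFA 1, 3096 without saline 1). RVM calls were 4 without a filter, 1 with a pseudocount of 0.1, 318 with quality weights and 0 to 367 with single libraries left out.

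With the number as a replicate block in all libraries 0 genes differed and 2551 passed in thalamus (1104 higher, 1447 lower). With it as a replicate block in thalamus alone, added after seeing the data, 406 differed (109 higher, 297 lower), 3946 passed in thalamus and 0 in RVM. With the number within treatment as a replicate block 1 gene was called, Gpnmb, higher in thalamus (limma adjusted p = 0.0241), and the effects of single regions could not be fitted.

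Signs turned for these differences, none of which passed in those settings: Ttr (-0.83 without thalamus CFA 1 and 2), Penk (0.23 with weights, 0.20 without thalamus saline 1 and CFA 1), Zic1 (0.05, weights), Zic2 (0.20, weights, 0.04 without thalamus saline 1 and CFA 1), Ddc (0.02 with a pseudocount of 5, 0.05 without thalamus CFA 1 and 2), Rlbp1 (0.01 with the same total, 0.02 without thalamus CFA 1 and 2), Slc5a7 (-0.14 without thalamus saline 2, up to 0.99 with other single libraries left out and 1.04 with voom), Cd74 (-0.37 without RVM CFA 2, up to 1.58), Hba-a2 (0.08 without thalamus CFA 3, -1.04 without thalamus CFA 1, -1.51 without thalamus CFA 1 and 2), Hbb (0.18 without thalamus CFA 3, 0.06 without RVM CFA 2, -0.97 without thalamus CFA 1, -1.62 without thalamus CFA 1 and 2) and Bdnf (-0.27 to 0.13 with single libraries left out, -0.41 without thalamus saline 1 and CFA 1, 0.04 with voom, 0.06 with the same total, 0.05 without thalamus CFA 2, 0.09 without RVM saline 2). The cause was not tested. With 3 libraries per group, differences below the intervals given are not detectable.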
